A study of Homo sapiens with 4 samples.

Results

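Notch receptors, ligands and target genes were measured by microarray in H1299, an established human lung carcinoma line of the non-small cell type, with an Oct4 or a nestin promoter driving GFP. The list held 10 genes, chosen by symbol in the platform annotation: the receptors NOTCH1, NOTCH2 and NOTCH3, the ligands JAG1, JAG2, DLL1 and DLL3, the glycosyltransferase LFNG, and the target genes HES1 and HEY1. Each has 1 probe, so 10 of the 30968 probes are described. The 4 populations were Oct4/GFP (+) and Oct4/GFP (-) cells of the Oct4 line, and Nestin/GFP (+) and Nestin/GFP (-) cells of the Nestin line, and values are given in this order. The GFP (+) cells were stably transfected with the named reporter vector and sorted for high GFP, and all populations were H1299 cells cultured for 24 h. The labels call the GFP (-) cells negative without giving their origin, and the array methods mention only the sort for high GFP. Elsewhere the study obtained GFP (-) cells of both lines by sorting GFP (+) cells, culturing them for weeks and sorting again for those without GFP. With 1 array per population no difference could be checked against replicates or given a p-value, and this number sets the precision. GFP reports the activity of the inserted promoter, and whether a line was a clone or a pool is not stated in the labels or methods.

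Notch is a receptor read by cell contact. A Jagged or Delta ligand on a neighboring cell binds the receptor, ADAM metalloproteases and then the gamma-secretase complex cut it, and the freed intracellular domain joins the DNA-binding protein RBPJ and a Mastermind coactivator to switch on HES and HEY genes. In the airway epithelium Notch is known for setting the balance between secretory, ciliated and neuroendocrine cells.

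The deposited values are linear intensities after background subtraction, and 23.1% to 29.7% of the values on an array lay at or below 0. The values below 0 on an array gave its noise SD as their root mean square, and 3 times this SD was the limit a probe had to exceed to count as above background. The limit was 15.3 in Oct4/GFP (+) and 13.9 in Oct4/GFP (-) cells, and 22.7 in Nestin/GFP (+) and 20.3 in Nestin/GFP (-) cells, and 19.5% to 29.1% of the probes passed it. The median intensity of the arrays ran from 4 to 9, with the lowest on Oct4/GFP (-). As markers of the line, VIM and CD44 were above the limit on all 4 arrays and KRT19 on 0, while KRT8 and KRT18 have no probe named here. CD44 had intensities of 21, 83, 682 and 352 and VIM of 267, 140, 1518 and 772, both brighter on the Nestin arrays as deposited. After quantile normalization CD44 was 23.5, 259, 391.5 and 277, close between the GFP (-) arrays. VIM was then 393.5, 451.5, 907 and 622. The part of CD44 and VIM in the results was not tested. Of 10 probes for blood, endothelial, fibroblast and neuroendocrine markers, 0 to 2 were above the limit on an array, their summed intensity was 27 to 45, and SYP, CHGA, CD3E and PTPRC were above it on 0 arrays. Those above it were COL1A1 and DCN in Nestin/GFP (+) cells, with 26 and 23. In Oct4/GFP (-) cells they were COL1A1 with 14 and a PECAM1 probe with 19. These 4 values were 1.01 to 1.37 times the limit. The NES probe, for nestin itself, had intensities of 5, 2, -4 and 20, all under the limit, and POU5F1, which encodes Oct4, has no probe named here.

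Of the 10 genes, 5 were above background on at least 1 array, and 3 of these, JAG1, DLL3 and HES1, on all 4. Of all 30968 probes, 18219 were above background on no array and 3980 on all 4. The 3 receptors, JAG2 and LFNG were above it on 0 arrays, which does not show that the RNA was absent. HEY1 was brighter in GFP (+) than in GFP (-) cells of both reporter lines, and DLL3 was dimmer in GFP (+) than in GFP (-) cells of the Oct4 line. Both kept these directions under every scaling and background limit that gave a value. Between the GFP (+) arrays JAG1 was brighter in the Oct4 line, in direction also under each of these but past 2-fold only under some. HES1 was bright on every array, and the direction of 3 of its 4 differences changed with the scaling, the exception being the Nestin line.

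**Figure D1:**
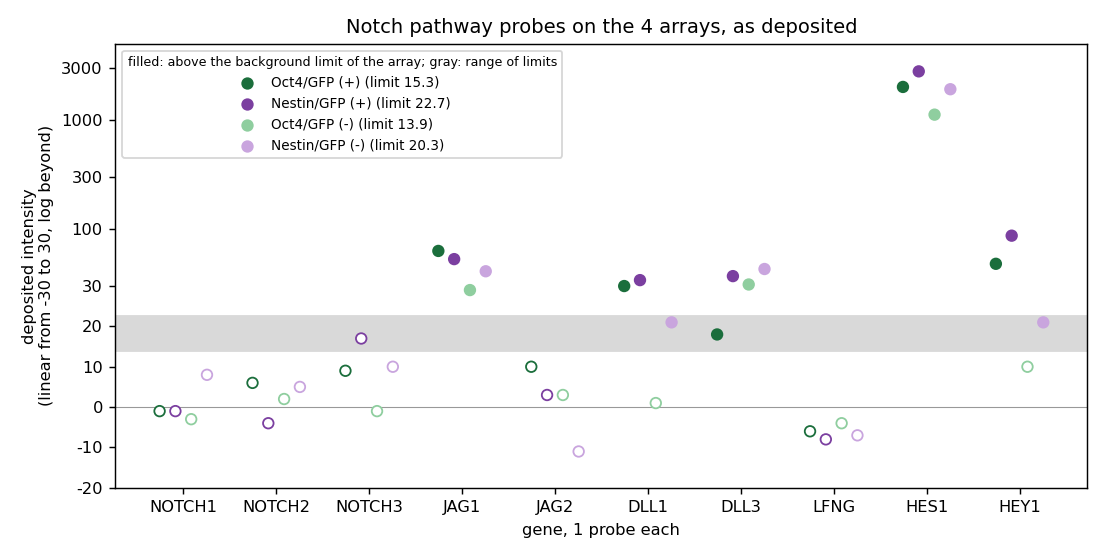
Deposited intensity (y axis, linear near 0 and logarithmic beyond 30 on either side) of the probe of each gene (x axis) on the 4 arrays, with filled points above the background limit of the array and open points under it. All 4 points of NOTCH1, NOTCH2, NOTCH3, JAG2 and LFNG are open, and the HES1 points lie between 1123 and 2803.

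The receptor probes stayed near 0. NOTCH1 had intensities of -1 in Oct4/GFP (+) and -3 in Oct4/GFP (-) cells, and -1 in Nestin/GFP (+) and 8 in Nestin/GFP (-) cells. NOTCH2 had 6, 2, -4 and 5 in the same order, and NOTCH3 had 9, -1, 17 and 10. The value nearest to its limit was the 17 of NOTCH3 on the Nestin/GFP (+) array, against a limit of 22.7. The receptors could therefore not be compared between populations at this signal. LFNG, the lunatic fringe enzyme that lengthens sugars on the receptor and alters which ligand it answers to, had -6, -4, -8 and -7, below 0 on every array.

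Of the 4 ligands, JAG1 was measured on all arrays and DLL3 also, DLL1 on 3 and JAG2 on 0. JAG1 encodes Jagged 1, a ligand that activates Notch on neighboring cells. Its intensities were 63 in Oct4/GFP (+) and 29 in Oct4/GFP (-) cells, and 53 in Nestin/GFP (+) and 41 in Nestin/GFP (-) cells, which is 2.02 to 4.12 times the limit of each array. After quantile normalization these became 84.0, 78.0, 36.0 and 31.0, so that both Oct4 arrays lay above both Nestin arrays, while the deposited values do not separate the lines. Between the GFP (+) arrays JAG1 was 2.33-fold higher in the Oct4 line, a log2 difference of 1.22, and it ran from 0.91 to 1.53 when both values were moved by 1 noise SD in opposite directions. In such ranges no value was moved below the lowest normalized signal above background on its array, which cuts the ranges of probes near the limit. Between the GFP (-) arrays it was 2.52-fold higher in the Oct4 line, a log2 difference of 1.33 with a range of 0.84 to 1.81. On the deposited scale that second difference was -0.50, with the median measured probe then at -1.67. Relative to the median probe it was 1.15 with quantile normalization and 1.17 with the other 4 scalings. Those 4 differ only by 1 factor per array, so for every probe they give the same value relative to the median by construction. The first difference, between the GFP (+) arrays, was 0.25 as deposited and when scaled to the median and 0.72 when scaled to the 75th percentile. It was thus under 2-fold in 3 of the 5 scalings. Relative to the median probe it was 1.13 with quantile normalization and 1.18 with the others. GFP (+) and GFP (-) cells of a line were close in JAG1, with log2 differences of 0.11 in the Oct4 line (1.12 as deposited) and 0.22 in the Nestin line (-0.03 with centring on probes that passed the limit on every array), both with noise ranges that include 0.

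JAG1 and DLL3 were the ligand genes measured on every array with a difference between the lines, and DLL3 had no promoter window here. JAG1 is shown with the promoter window that RefSeq gives for it in GRCh38.p14, chr20:10673950-10674249 on the minus strand, from 250 bases before to 50 bases after the start site. No letters are in capitals, as the window holds 0 matches to the motifs searched below.
JAG1: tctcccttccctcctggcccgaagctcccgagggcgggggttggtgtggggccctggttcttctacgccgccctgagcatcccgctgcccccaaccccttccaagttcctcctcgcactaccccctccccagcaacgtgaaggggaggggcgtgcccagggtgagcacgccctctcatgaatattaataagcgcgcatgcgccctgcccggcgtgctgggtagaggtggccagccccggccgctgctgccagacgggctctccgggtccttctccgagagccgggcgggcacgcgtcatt

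DLL3 encodes a Delta-like protein that lies mostly inside the cell and is known to damp Notch signaling in the cell that makes it, and it is a surface antigen of neuroendocrine lung tumors. Its intensities were 18 in Oct4/GFP (+) and 31 in Oct4/GFP (-) cells, and 37 in Nestin/GFP (+) and 43 in Nestin/GFP (-) cells. The lowest, 18, was only 1.18 times the limit of its array. The normalized intensities were 19.8, 84.2, 27.5 and 32.5, highest on the Oct4/GFP (-) array. DLL3 was 4.27-fold lower in Oct4/GFP (+) than in Oct4/GFP (-) cells, a log2 difference of -2.09 that ran from -2.51 to -1.41 with 1 noise SD, its lower end cut at the lowest signal above background. As deposited it was -0.78, and relative to the median probe it was -2.07 with quantile normalization and -1.81 with the other scalings. Between the GFP (-) arrays DLL3 was 2.59-fold higher in the Oct4 line, at 1.37 with a range of 0.90 to 1.83, but at -0.47 on the deposited scale. These 2 values share the Oct4/GFP (-) array, where an intensity of 31 on a dim array became 84.2. Between the GFP (+) arrays the log2 difference was -0.48 and in the Nestin line -0.24, both with noise ranges that include 0 and with values of 0.09 and 0.15 in the other direction under 1 scaling each.

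DLL1, a Delta ligand that activates Notch, had intensities of 30 in Oct4/GFP (+) and 1 in Oct4/GFP (-) cells, and 34 in Nestin/GFP (+) and 21 in Nestin/GFP (-) cells. The GFP (+) array was the brighter of each line, and the GFP (-) values lay under or just over their limits of 13.9 and 20.3. The normalized log2 difference was 0.65 in the Nestin line, with a noise range of -0.05 to 0.89 whose upper end is cut at the lowest signal above background. In the Oct4 line DLL1 was at least 1.25-fold higher in GFP (+) cells. That bound, 0.32 on the log2 scale, had a noise range of -0.05 to 0.58, which includes 0. The differences within both lines were under 2-fold here, and past it at 1.06 in the Nestin line when scaled to the median and at 1.10 in the Oct4 line as deposited. The Oct4 line exceeded the Nestin line in GFP (+) cells by 0.58, with a noise range of -0.03 to 1.13, and -0.18 as deposited. Where a bound is given, the dim array was set to the higher of its lowest normalized signal above background and the value of the probe itself. JAG2, the other Jagged ligand, had intensities of 10, 3, 3 and -11.

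HES1 encodes a basic helix-loop-helix repressor that is the classical target of Notch and also represses its own gene. Its intensities were 2017 in Oct4/GFP (+) and 1123 in Oct4/GFP (-) cells, and 2803 in Nestin/GFP (+) and 1922 in Nestin/GFP (-) cells, 81.0 to 132 times the limit of each array. Background noise moved its log2 differences by little, but the scaling of the arrays did. The normalized intensities were 2353, 3234, 1650 and 1572 in the same order, with both Oct4 arrays above both Nestin arrays, whereas as deposited the Nestin array was the brighter in each GFP state. Between the GFP (-) arrays HES1 was 2.06-fold higher in the Oct4 line, a log2 difference of 1.04, or -0.78 as deposited. Relative to the median probe it was 0.86 with quantile normalization and 0.90 with the other scalings, under 2-fold in each. Between the GFP (+) arrays the log2 difference was 0.51, or -0.47 as deposited and when scaled to the median. Relative to the median probe it was 0.42 with quantile normalization and 0.45 with the others. GFP (+) against GFP (-) gave -0.46 in the Oct4 line, where 3 of the 5 scalings gave a positive value of up to 0.84, and 0.07 in the Nestin line, where the other 4 scalings gave 0.14 to 0.91. Relative to the median probe these were -0.44 and 0.05 with quantile normalization, and -0.18 and 0.25 with the other scalings. In the order of normalized levels, Oct4/GFP (-), Oct4/GFP (+), Nestin/GFP (+) and Nestin/GFP (-), neighbors differed by less than the SD between probes of the same gene, 0.54 to 0.93, described below.

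The HES1 promoter is shown because it is the gene through which Notch activity is usually read. The RefSeq window, GRCh38.p14, chr3:194135898-194136197 on the plus strand, runs from 250 bases before to 50 bases after the start site, and capitals mark TGGGAA, the core of the motif bound by RBPJ.
HES1: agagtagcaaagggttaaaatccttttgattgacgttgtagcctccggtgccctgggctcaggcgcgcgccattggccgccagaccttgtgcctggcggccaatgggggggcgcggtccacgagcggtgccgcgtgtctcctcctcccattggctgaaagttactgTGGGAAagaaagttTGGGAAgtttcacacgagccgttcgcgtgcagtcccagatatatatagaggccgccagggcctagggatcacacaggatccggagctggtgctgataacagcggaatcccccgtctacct
The window holds this core 2 times, starting 84 and 70 bases before the start site, and both strands were searched. Of 35116 RefSeq promoter windows of the same length, 24.0% hold the core. The first of the pair lies within the only match to the longer RBPJ motif, GTGGGAA, which 6.25% of the windows hold. The N box to which HES proteins bind, searched as CACNAG, matched 4 times in HES1, starting 165, 132 and 58 bases before the start site and once after it, and 38.0% of the windows hold it. The E box bound by HES and HEY proteins, searched as CACGTG, had 0 matches in HES1 and stands in 7.26% of the windows. The string TATAAA, the only form of a TATA box searched, also had 0 matches and stands in 11.5%. The printed window does hold the run tatatata, which that search does not match. The 0 matches therefore do not show that a TATA box is absent. In all, 7 of the 10 genes had a window, LFNG with a pair of them, and of these 8 windows the longer RBPJ motif was found in 1, its core in 3 and the N box in 5. A match is a run of letters, not a measured site. DLL1, DLL3 and HEY1 had no entry in the table used.

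HEY1 encodes a repressor related to HES1 that is also a direct target of Notch. Its intensities were 48 in Oct4/GFP (+) and 10 in Oct4/GFP (-) cells, and 87 in Nestin/GFP (+) and 21 in Nestin/GFP (-) cells. Both GFP (+) values were over 3 times the limit of their array, the Nestin/GFP (-) value was 1.04 times its limit, and the Oct4/GFP (-) value was under it. In the Nestin line HEY1 was 3.48-fold higher in GFP (+) than in GFP (-) cells, a log2 difference of 1.80 with a noise range of 1.27 to 1.92. The Nestin/GFP (-) value already lay at the lowest signal above background and could not be moved lower, so the upper end is cut. The SD between probes of the same gene in that comparison was 0.54. Over the other 4 scalings the difference was 1.65 to 2.41. Relative to the median probe it was 1.78 with quantile normalization and 1.76 with the others. In the Oct4 line HEY1 was at least 2.05-fold higher in GFP (+) cells, with bounds of 0.76 to 1.78 on the log2 scale over the other scalings. The noise range of the quantile-normalized bound was 0.78 to 1.19, reaching under 2-fold. With a limit of 2 noise SD, where the Oct4/GFP (-) value counts as measured, HEY1 was higher by 1.81 on the log2 scale. Between the GFP (+) arrays HEY1 differed by 0.14, with a noise range of -0.12 to 0.42, and by -0.86 as deposited. Between the GFP (-) arrays neither HEY1 nor DLL1 gives a fold, since each was above background on 1 array only, and just so. In RNA from many cells, fewer cells that express a gene and less RNA in each cell cannot be told apart.

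**Figure D2:**
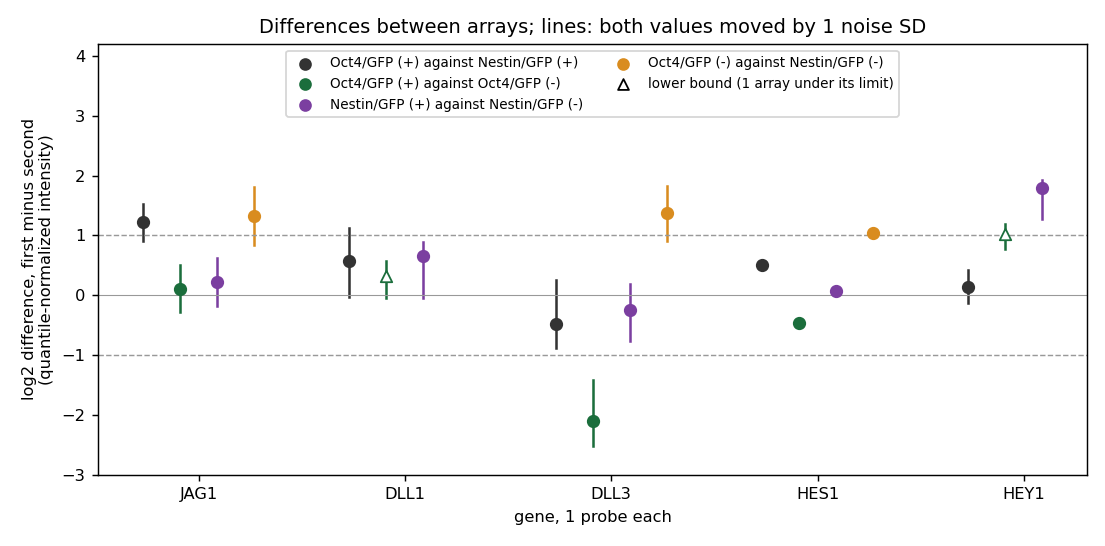
Log2 difference of quantile-normalized intensity (y axis, first array named minus second) for the 5 genes above background (x axis) in 4 comparisons, with triangles for lower bounds, lines for the range when both values are moved by 1 noise SD, and dashed lines at 2-fold. HEY1 in the Nestin line lies at 1.80 and DLL3 in the Oct4 line at -2.09.

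Counted past 2-fold, these differences have to be read against all probes with a difference in the same comparison. In Oct4/GFP (+) against Nestin/GFP (+) cells, 1 of 5 Notch probes was past 2-fold (JAG1), and 31% of all 10313 probes were, 15.7% higher and 15.3% lower. In Oct4/GFP (+) against Oct4/GFP (-) cells 2 of 5 were, HEY1 higher and DLL3 lower, with 31.4% of all probes, 10.8% higher and 20.6% lower. In Nestin/GFP (+) against Nestin/GFP (-) cells 1 of 5 was (HEY1), with 13.3% of all probes, 7.09% higher and 6.23% lower. In Oct4/GFP (-) against Nestin/GFP (-) cells all 3 Notch probes with a difference, JAG1, DLL3 and HES1, were higher in the Oct4 line, where 36.1% of all probes were past 2-fold, 24% higher and 12.1% lower, and on the deposited scale 0 of the 3 were. The median log2 difference of the measured Notch probes was 0.51, -0.46, 0.22 and 1.33 in this order of comparisons, against 0.09, -0.02, 0.02 and 0.18 for all measured probes. With 3 to 5 probes, and with genes that count only where they are bright, these numbers describe the list and set it apart from nothing. The split into higher and lower also followed the scaling. As deposited, 0 Notch probes were higher and 1 lower between the GFP (+) arrays, and 3 were higher and 0 lower in the Oct4 line, and the median measured probe lay at -0.93 and 1.03 in these comparisons. Each array enters 2 of the 4 comparisons, so their values are not independent. Genes with at least 2 measured probes show how far probes of 1 gene disagree on the same pair of arrays. This holds no variation between samples or arrays, so it is not the error of a difference between populations. The SD of the log2 difference between probes of the same gene was 0.93, 0.85, 0.54 and 0.74 in these comparisons, over 181 to 362 genes. Among the differences past 2-fold with quantile normalization, HEY1 in the Nestin line and DLL3 in the Oct4 line were over 2 times the SD of their comparison. That DLL3 difference was -1.80 with centring, -1.59 scaled to the median, -1.49 scaled to the 75th percentile and -0.78 as deposited. The measured differences of JAG1, DLL3 and HES1 between the lines were between 1 and 2 times the SD. The HEY1 bound in the Oct4 line was over 1 times it with no upper limit. No Notch gene of the list has a second probe.

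**Figure D3:**
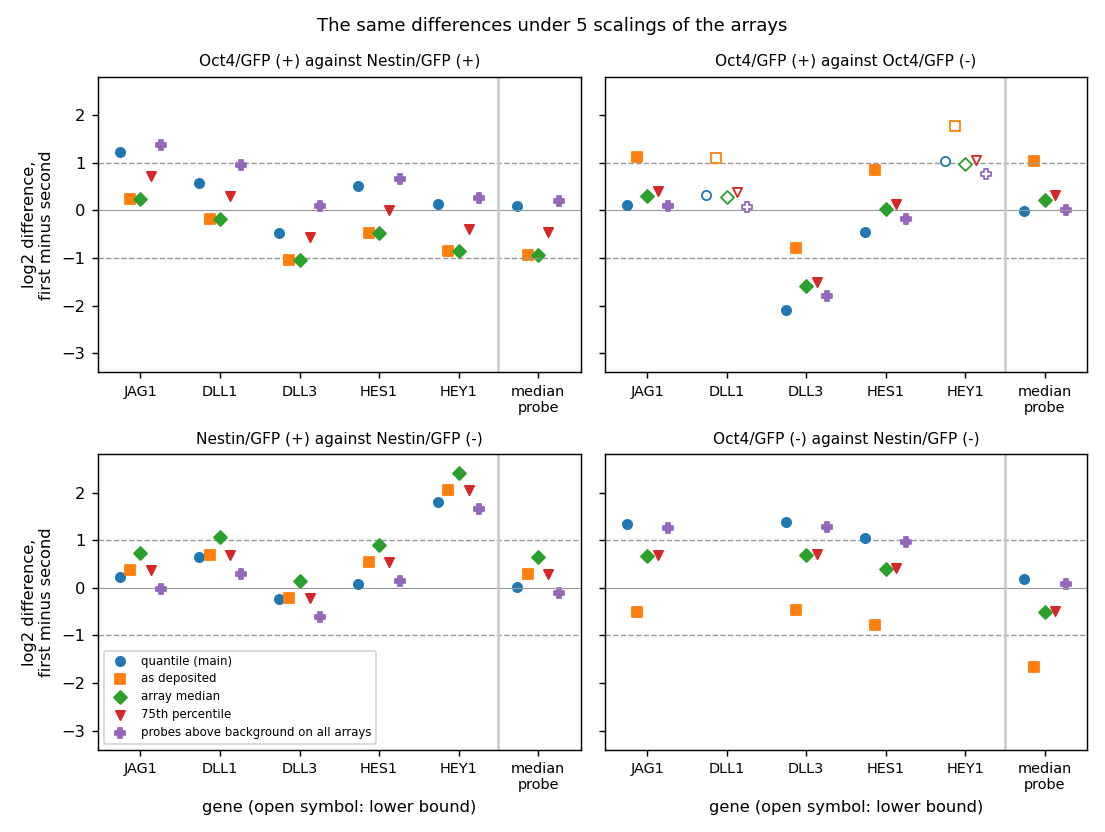
Log2 difference (y axis, first array named minus second) of the 5 genes and of the median measured probe (x axis) in 4 comparisons, each under 5 scalings of the arrays, with open symbols for lower bounds. On the deposited scale JAG1, DLL3 and HES1 in the GFP (-) comparison lie at -0.50, -0.47 and -0.78 while the median probe lies at -1.67.

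The rest of the pathway was taken from a list of 61 further genes, of which 55 have a probe named here (66 probes, 36 above background on at least 1 array). Over the whole array, 18219 of 30968 probes were above background on no array. The proteases that cut the receptor were the best measured group, with 9 of 11 probes above background on at least 1 array and 6 on all 4. Of the 10 further target gene probes, 3 were above background. The RBPJ probe, singled out after its values were seen, had intensities of 11, 1, 9 and 0, all under the limit, so RBPJ was not measured above background here. The direction of the counts that follow depends on the scaling. As deposited, the further probes past 2-fold between the GFP (+) arrays were 2 higher and 15 lower, and those between the GFP (-) arrays 0 higher and 24 lower. Within the Oct4 line 12 were then higher and 0 lower, and within the Nestin line 5 and 0.

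In Oct4/GFP (+) against Nestin/GFP (+) cells, 3 of 33 further probes with a difference were higher and 6 lower past 2-fold, 7 of these as bounds, with a median log2 difference of -0.07 among the measured ones against 0.09 over all probes. Of all probes with a difference, 31% were past 2-fold, 15.7% higher and 15.3% lower. APH1A, a subunit of gamma-secretase, had intensities of 220 on Oct4/GFP (+) and 237 on Nestin/GFP (+) and was 2.32-fold higher in the former once normalized, with the order turned as deposited. NUMB, an endocytic inhibitor of Notch, was 2.42-fold lower at 1 probe (41 and 222) and at least 2.43-fold lower at the other (15 and 63), so both probes gave the same direction (the second is named for comparison, after its value was seen). With 1 noise SD the bound of the second ran from -1.43 to -0.75 on the log2 scale. In Oct4/GFP (+) against Oct4/GFP (-) cells 2 of 25 were higher and 3 lower. Over all probes 31.4% were past 2-fold there, 10.8% higher and 20.6% lower. The corepressor SPEN, which binds RBPJ in the absence of Notch signal, was 2.32-fold lower in GFP (+) cells, from intensities of 57 and 58. The corepressor TLE1 was at least 4.39-fold higher and the fringe enzyme MFNG at least 2.28-fold higher. DLK2, a Delta-like protein, was at least 2.68-fold lower at 1 probe, from intensities of 9 and 18, and its other probe was under the limit on every array. For NUMB 1 probe was at least 2.46-fold lower, from 15 and 17, while the other had a log2 difference of -0.26. With 1 noise SD these bounds ran from -1.82 to -0.82 for DLK2 and from -1.74 to -0.44 for NUMB on the log2 scale, both reaching under 2-fold.

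In Nestin/GFP (+) against Nestin/GFP (-) cells 2 of 30 further probes were higher and 0 lower, with a median of 0.07 against 0.02 over all probes. Over all probes 13.3% were past 2-fold there, 7.09% higher and 6.23% lower. SPEN was 2.11-fold higher in GFP (+) cells, with intensities of 239 and 87, and 1 NUMB probe was 2.37-fold higher, while the other had a log2 difference of 0.63. On the log2 scale the noise ranges were 0.91 to 1.25 for SPEN and 0.70 to 1.52 for the first NUMB probe. Both reached under 2-fold. In Oct4/GFP (-) against Nestin/GFP (-) cells 3 of 25 were higher and 2 lower. Over all probes 36.1% were past 2-fold there, 24% higher and 12.1% lower. SPEN was 2.61-fold higher in the Oct4 line, from 58 and 87 as deposited, where the order is turned. The 2 NUMB probes went opposite ways, at 1.26 and -0.39 on the log2 scale. Their noise ranges were 0.39 to 1.83, from intensities of 17 and 23, and -0.82 to -0.01. TLE2 was at least 6.29-fold higher in the Oct4 line, TLE1 at least 2.93-fold lower and the ligand DLL4 at least 2.10-fold lower. With 1 noise SD the DLL4 bound ran from -1.19 to -0.95 on the log2 scale. Medians in the Oct4 line and between the GFP (-) arrays were -0.12 and -0.01, against -0.02 and 0.18 over all probes.

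**Figure D4:**
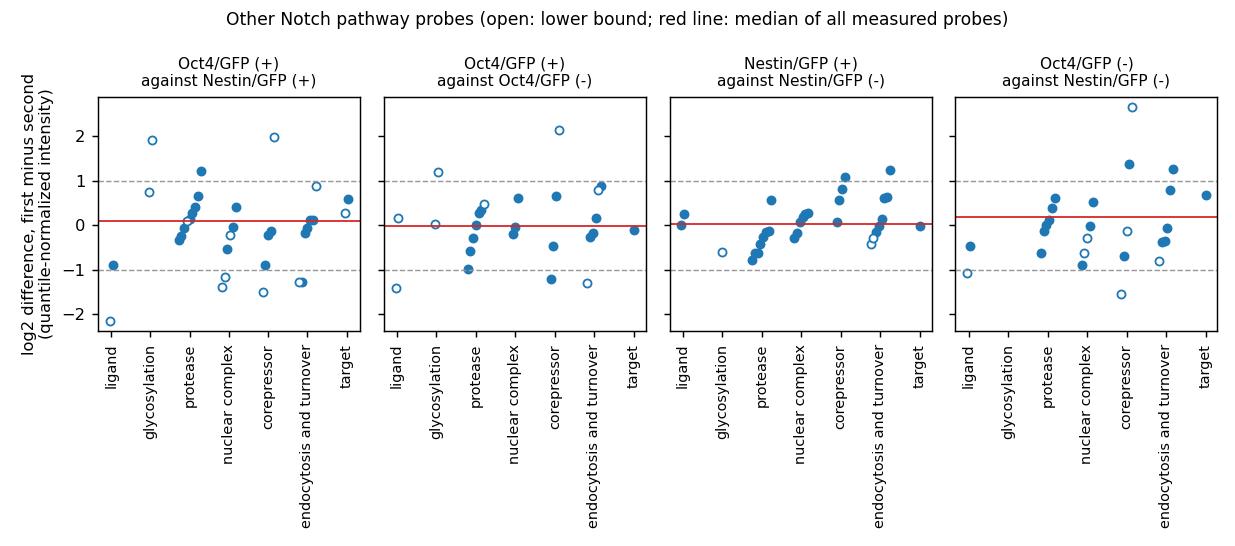
Log2 difference (y axis, first array named minus second) of each further Notch pathway probe above background on at least 1 array of the comparison, grouped by role (x axis), with open points for lower bounds, dashed lines at 2-fold and a red line at the median of all measured probes. In the Nestin line 2 points lie past 2-fold, both upward.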

How the data were processed

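RNA of 4 H1299 cell populations was labeled with Cy3 and hybridized to Phalanx Human OneArray spotted arrays, 1 per population, read on a GenePix scanner. The intensity values that the authors deposited are linear and background-subtracted. The sources used here do not state their software, scaling or filters. Each array was assigned to its population by its label.

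The 4 arrays were quantile normalized, and values under the background limit (3 noise SD) were set to the lowest normalized signal that passed it there, before log2 per probe. Probes that passed on both arrays compared give a measured difference. A probe that passed on 1 array has a bound, kept only where the bright array was the higher, and otherwise no fold. A difference was counted past 2-fold above 1 or below -1 on the log2 scale. No test was run. Members and lists were chosen with earlier results of these data known. The text names all 10 members, and further pathway genes past 2-fold with a measured difference, at most 6 per comparison, or with bounds where these are 5 or fewer. Symbols came from the platform annotation (17397 probes with 1 symbol, 13571 unnamed here), updated by RefSeq synonyms of GRCh38.p14. No build is named for the array.

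Alternatives were no normalization, scaling to the median or the 75th percentile, centring on probes above background on all 4 arrays, an offset of 50 with no limit, background limits of 2, 5 and 10 noise SD, measured differences only, thresholds of 1.5-fold and 4-fold, and genes in place of probes. The steps were tested on simulated arrays, with known folds put only into probes well above background. Probes near the background limit were not tested separately. Python 3.11.15, numpy 2.4.6, pandas 2.3.3 and matplotlib 3.10.9 were used.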

Additional observations from a re-analysis of the deposited data

Results flagged for a closer look

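HES1 went in opposite directions between GFP (+) and GFP (-) cells in the lines, with a log2 difference of -0.46 in the Oct4 line and 0.071 in the Nestin line. DLL3 went in opposite directions between the Oct4 and the Nestin line, with -0.48 in GFP (+) cells and 1.37 in GFP (-) cells. Each value rests on 1 pair of arrays, and neither difference was tested. On the deposited scale the signs were the same in each pair, with HES1 at 0.84 and 0.54 and DLL3 at -1.04 and -0.47.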

How the results depend on the processing

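No paired analysis was possible because each population has 1 array and no test was run. Counts of Notch probes past 2-fold were 1 between the GFP (+) arrays, 2 in the Oct4 line, 1 in the Nestin line and 3 between the GFP (-) arrays. The values that differed by over 1.5 times follow, and the cause was not tested. On the deposited scale the count between the GFP (-) arrays was 0, with JAG1 at -0.50, DLL3 at -0.47 and HES1 at -0.78. Scaling to the median gave 1 in the Oct4 line, 2 in the Nestin line and 0 between the GFP (-) arrays. Scaling to the 75th percentile gave 0 between the GFP (+) and 0 between the GFP (-) arrays. Centring on probes above background on all 4 arrays, a limit of 5 noise SD and measured differences only each gave 1 in the Oct4 line. A limit of 10 noise SD and an offset of 50 each gave 0, 0, 0 and 1 in the order above, a threshold of 4-fold gave 0, 1, 0 and 0, and a threshold of 1.5-fold gave 2 in the Nestin line. Of 12 alternatives, 8, 5, 7 and 6 left the counts within 1.5 times. An equal count can hide another gene, since between the GFP (+) arrays the deposited scale and scaling to the median each gave 1 lower (DLL3 at -1.04) in place of 1 higher, with JAG1 at 0.25. Further pathway probes past 2-fold (9, 5, 2 and 5) ranged over 1 to 17, 1 to 12, 0 to 9 and 1 to 24. Of all probes past 2-fold, 50.6%, 34.3%, 53.2% and 66.5% were higher, and 7.14%, 94.0%, 70.3% and 0.333% as deposited. These shares were 7.06%, 50.1%, 91.7% and 23.3% with scaling to the median, 25.1%, 59.9%, 70.3% and 23.7% with the 75th percentile, and 67.7%, 27.8%, 29.5% and 70.1% with centring.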
